A study of Mus musculus with 15 samples.

Results

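The core circadian clock genes were followed in the H3K4me3 landscape of the WT mouse amygdala. They are Clock, Arntl, Per1, Per2, Per3, Cry1, Cry2, Nr1d1, Nr1d2 and Dbp, 10 of the 21938 protein-coding genes of the GENCODE annotation. The genes were chosen by symbol, and a peak summit was counted for a gene when it lay within 1 kb of any of its annotated transcription start sites (TSSs) or inside its gene body. By this rule 14 of the 24139 summits on chromosomes 1 to 19, X and Y belonged to the 10 genes.

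Among other questions, the study asked how deficiency of an H3K4 methyltransferase, KMT2A, and of an H3K4me3 demethylase, KDM5C, alters this mark in the amygdala. Nuclei were prepared from amygdala dissected from adult male F1 129xB6 mice of 4 genotypes: WT, Kmt2a-HET, Kdm5c-KO and the Kmt2a-Kdm5c double mutant. H3K4me3 was profiled in 2 WT samples and 3 samples of each mutant, with 1 input per genotype and 20000 nuclei per sample. The alleles are carried in the germline and are therefore present in every cell type of the tissue. The list analysed here holds the WT peaks, given as 1 list for both WT mice and taken as called on them together. The mutant samples were not analysed here. The tissue is a mixture of cell types, in which fewer cells carrying the mark and less of it per cell cannot be told apart. The time of day at which the tissue was taken is not given in the sources used here.

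Each line of the list gives the position of a summit, 1 bp wide, and a score that was read as −log10 of the q-value against the input. The score measures how surely a summit stands above the input and is not an amount of H3K4me3. Scores are therefore compared by differences and ranks, not by folds. The list does not separate the WT mice, so no value has a replicate error and no test was possible. The list also does not give the read depth behind each score. Scores ran from 1.18 to 341.66 with a median of 102.34, and many summits share a score. Among markers of brain cells, 15 of 17 had a summit near a TSS (within 1 kb), while among markers of tissues outside the brain 0 of 7 did. The brain markers without one, Olig1 and Sox10, had summits in their gene bodies, as did Apoa1, at 127.93, and Myh6, at 2.73, among the markers of other tissues.

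The clock is a loop of transcription factors. CLOCK and BMAL1, the product of Arntl, bind E-boxes as a pair and activate the Per, Cry, Nr1d and Dbp genes. The PER and CRY proteins then repress the pair. The REV-ERB receptors, encoded by Nr1d1 and Nr1d2, repress Arntl through ROR elements, and DBP activates genes with D-boxes. The loop is best known from the suprachiasmatic nucleus and also runs in other brain regions, the amygdala among them. H3K4me3 marks nucleosomes around the TSSs of active and poised genes, usually most strongly just inside the transcribed side.

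All 10 clock genes had at least 1 promoter summit, defined as a summit within 1 kb of a TSS. Of all protein-coding genes, 64.7% did (95% Wilson interval 64.1 to 65.3, which covers counting error only). The highest promoter summit of each clock gene also lay above the median score of the list. A promoter summit at or above it was present in 52% of protein-coding genes (51.4 to 52.7), 11416 of them, against 14197 with any promoter summit. The median of the 10 highest promoter scores was 233.15, with a range of 127.88 to 322.55. Among the 14197 protein-coding genes with such a summit, hereafter marked coding genes, the median was 194.64 and the quartiles were 129.75 and 230.17. Thus 8 clock genes stood above that median, 5 of them above the upper quartile, and Per3 and Cry1 stood below it.

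**Figure D1:**
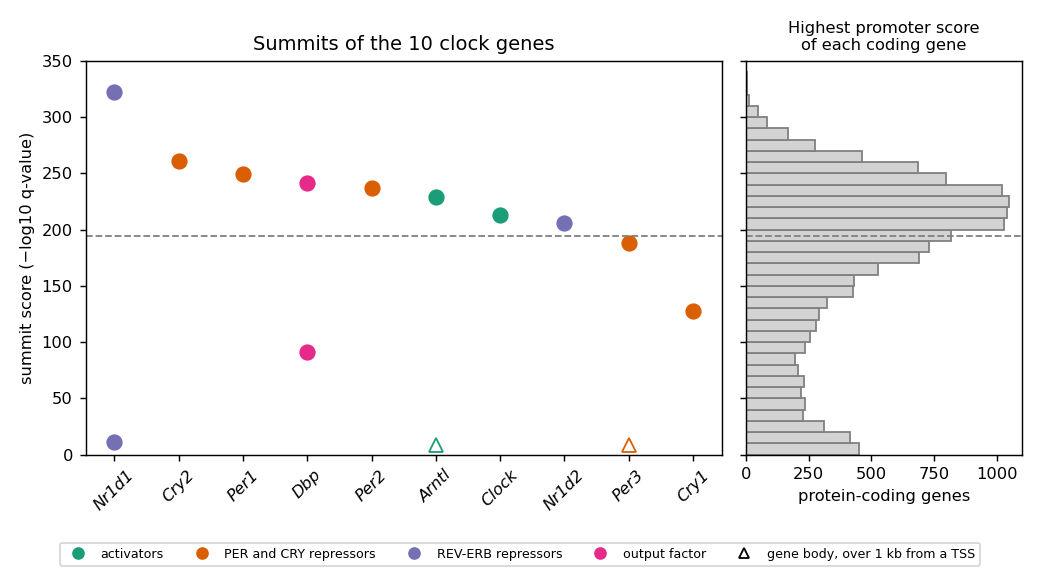
The left panel plots the score (−log10 q-value) of every summit of the 10 clock genes, ordered by their highest promoter summit, with triangles for gene body summits over 1 kb from a TSS. The right panel counts protein-coding genes by their highest promoter score, and the dashed line marks their median of 194.64, which 8 of the 10 clock genes exceed.

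Several promoter sequences are shown first, because each holds letters of a motif through which the loop is known to act. The 300-base windows run from 250 bases before to 50 bases after a RefSeq TSS on GRCm38.p6, are written 5′ to 3′ on the strand of the gene, and carry any motif match in capitals. The motifs searched on both strands were the E-box CACGTG, the E′-box CACGTT, the D-box TTATGTAA or TTACGTAA, the ROR element core TAGGTCA and the cAMP response element TGACGTCA. The E-box and the E′-box differ in their last base and cannot match the same position. The 1st sequence is from Arntl (chr7:113207261-113207560, plus strand) and holds a ROR element core. The 2nd is from Per1 (chr11:69098699-69098998, plus strand) and holds an E-box. The 3rd is from Cry1 (chr10:85185005-85185304, minus strand) and holds an E′-box, written as its reverse complement, and an E-box. The 4th is from Per3 (chr4:151044616-151044915, minus strand) and holds a pair of D-boxes.
Arntl: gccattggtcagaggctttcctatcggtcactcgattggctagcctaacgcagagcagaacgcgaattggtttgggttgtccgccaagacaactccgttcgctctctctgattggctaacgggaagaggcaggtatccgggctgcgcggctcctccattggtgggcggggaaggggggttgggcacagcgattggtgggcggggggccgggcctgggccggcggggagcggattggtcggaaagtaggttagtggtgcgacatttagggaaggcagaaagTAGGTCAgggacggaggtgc
Per1: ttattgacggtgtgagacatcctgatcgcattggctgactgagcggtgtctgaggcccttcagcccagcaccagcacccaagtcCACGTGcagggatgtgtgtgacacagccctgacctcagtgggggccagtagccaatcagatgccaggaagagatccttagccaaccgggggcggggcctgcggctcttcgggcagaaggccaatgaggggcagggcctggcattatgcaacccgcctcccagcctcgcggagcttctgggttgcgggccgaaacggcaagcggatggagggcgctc
Cry1: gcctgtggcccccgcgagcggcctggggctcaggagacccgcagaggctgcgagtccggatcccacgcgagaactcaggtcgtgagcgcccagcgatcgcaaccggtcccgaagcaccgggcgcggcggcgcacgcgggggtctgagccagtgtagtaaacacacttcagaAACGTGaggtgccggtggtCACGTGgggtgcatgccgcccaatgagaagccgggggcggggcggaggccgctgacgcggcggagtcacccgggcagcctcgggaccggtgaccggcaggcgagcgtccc
Per3: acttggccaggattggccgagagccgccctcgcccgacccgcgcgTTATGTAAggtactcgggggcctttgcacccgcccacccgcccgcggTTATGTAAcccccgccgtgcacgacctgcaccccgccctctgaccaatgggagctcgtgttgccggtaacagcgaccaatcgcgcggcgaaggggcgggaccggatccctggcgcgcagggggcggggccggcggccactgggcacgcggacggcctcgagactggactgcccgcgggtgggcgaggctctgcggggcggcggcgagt

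In each of these 4 genes the highest summit lay downstream of the window shown. RefSeq promoter windows were found for 9 of the 10 genes, 13 windows in all, and Per2 was not among them. An E-box was present in 2 of the 13 windows, those of Cry1 and Per1, and in 8.03% of the 20150 windows of protein-coding genes. An E′-box was present in 3 of the 13, those of Cry1, Cry2 and Nr1d1, against 4.69% of all windows. A D-box was found in 1 window, that of Per3 (1.00% of all windows), a ROR element core in 1, that of Arntl (2.27%), and a cAMP response element in none of the 13 (2.31%). A match is a description of the letters and does not show binding.

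A pair of shorter stretches is shown because they combine several motifs near a summit. Both were chosen after the motif positions had been seen. The stretch of Nr1d1 (chr11:98775624-98775704, minus strand) is centred on the lower of its summits, upstream of the gene, and carries an E-box and an E′-box. The stretch of Nr1d2 (chr14:18238515-18238688, minus strand) lies in intron 1, downstream of its summit, and carries 3 E-boxes and a D-box, the latter written as its reverse complement.
Nr1d1: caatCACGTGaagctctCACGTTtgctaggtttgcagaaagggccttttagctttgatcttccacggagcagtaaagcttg
Nr1d2: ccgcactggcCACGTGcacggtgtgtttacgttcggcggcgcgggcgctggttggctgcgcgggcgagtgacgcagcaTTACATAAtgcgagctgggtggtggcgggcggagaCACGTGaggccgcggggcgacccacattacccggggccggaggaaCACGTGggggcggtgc

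The activators had 1 promoter summit each, with neighbouring scores. Clock, a bHLH-PAS factor (ENSMUSG00000029238, chr5:76209868-76304792, minus strand), had its summit at position 76305218 with a score of 212.65. This was higher than the highest promoter score of 61.8% of marked coding genes. The summit lay 426 bp upstream of the nearest Clock TSS, outside the gene. It also lay 342 bp from the TSS of Gm7467, an antisense gene at 76304876. Clock was the only member whose highest promoter summit lay nearer to a TSS of another gene, a placement found for 13.6% of marked coding genes (13.0 to 14.1). Because H3K4me3 carries no strand, the share of this summit that belongs to either gene was not tested.

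Arntl, the partner of Clock (ENSMUSG00000055116, chr7:113207465-113314126, plus strand), had a promoter summit at 113208328 with a score of 229.38. It lay in intron 1, 771 bp downstream of the nearest TSS, farther than in 97.3% of marked coding genes. A second summit in the same intron, at 113209984 and 1656 bp from the first, scored 8.07. The promoter summit of Arntl thus differed from the one counted for Clock by 16.73 in score and in its side of the TSS. Whether that difference belongs to Clock or to Gm7467 was not tested. The ROR element core of Arntl shown above lay 16 bp before the TSS nearest to the Arntl promoter summit and 781 bp from that summit. The same core lay 30 bases after the RefSeq TSS of its window and downstream of the other marked Arntl TSSs, at 113207465 and 113207526.

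The Period genes encode the PER repressors and spanned a score range of 61.39. Per1, which is rapidly induced by light and by neuronal activity (ENSMUSG00000020893, chr11:69095217-69109960, plus strand), had the highest of them, 249.53 at 69099221. The summit lay in intron 1, 273 bp downstream of a TSS at 69098948. That TSS is 3731 bp inside the gene, and the outermost Per1 TSS had no summit within 1 kb. Per1 was the only one of the 10 genes without a mark at its outermost TSS, against 10.1% of marked coding genes (9.62 to 10.6). The same summit also lay within 1 kb upstream of the Per1 TSSs at 69100152 and 69100158. In Per1 the E-box shown above lay 165 bp before the TSS at 69098948, and a further E-box lay 528 bp before that TSS.

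Per2, whose PER repressor is needed for stable rhythms (ENSMUSG00000055866, chr1:91415982-91459324, minus strand), had a single summit at 91458907 with a score of 236.93. It lay in intron 1, 417 bp downstream of the TSS. Per3, which is less needed for rhythms than its paralogs (ENSMUSG00000028957, chr4:151003652-151044665, minus strand), reached 188.14 at 151044312, in the 5′ UTR and 353 bp downstream of the TSS. Per3 was the lowest Period gene, 48.79 below Per2, and stood above 45.9% of marked coding genes. A second Per3 summit lay in intron 3 at 151041840, 2825 bp downstream of the TSS, with the same score of 8.07 as the minor summit of Arntl. That score was shared by 204 summits of the list. The D-boxes of Per3 lay 158, 205 and 670 bp before its TSS.

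The Cryptochrome genes lay far apart in the order of scores. Cry2 (ENSMUSG00000068742, chr2:92403646-92434043, minus strand) had its summit at 92433737, in intron 1 and 299 bp downstream of a TSS, with a score of 261.06. Cry1 (ENSMUSG00000020038, chr10:85131700-85185064, minus strand) had its summit at 85184818, in the 5′ UTR and 246 bp downstream of a TSS, with a score of 127.88. Both genes encode repressors of CLOCK and BMAL1, and their promoter scores differed by 133.18. Cry2 was higher than 92.6% and Cry1 than 24.5% of marked coding genes, so they held the 2nd and the 10th place among the clock genes. In Cry1 an E-box lay 50 bp and an E′-box 69 bp before the TSS. Cry2 held E′-boxes 199 bp before and 610 bp after its TSS.

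Nr1d1 had the highest score of the 10 genes. It encodes REV-ERBα, the main repressor of Arntl (ENSMUSG00000020889, chr11:98767932-98775333, minus strand). Its summit at 98774945, in the 5′ UTR and 388 bp downstream of the TSS, had a score of 322.55. It ranked 7th of all 24139 summits, above 99.94% of the highest promoter scores of marked coding genes. It exceeded the second clock gene, Cry2, by 61.49. A low summit with a score of 11.08 lay at 98775664, 331 bp upstream of the TSS and 719 bp from the high one. In the stretch shown above, the E′-box lay 18 bp and the E-box 31 bp from that low summit.

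Nr1d2, which encodes REV-ERBβ (ENSMUSG00000021775, chr14:18204054-18239127, minus strand), had a single summit at 18238880 with a score of 205.86. It lay in the 5′ UTR, 131 bp downstream of a TSS, the shortest distance among the 10 genes. The REV-ERB genes thus differed by 116.69 in score. The E-boxes of Nr1d2 lay 333, 436 and 481 bp after the TSS, which is 202 to 350 bp downstream of the summit, with a D-box between them at 401 bp.

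Dbp encodes the PAR bZIP factor that carries clock output through D-boxes (ENSMUSG00000059824, chr7:45705088-45710203, plus strand). Its main summit scored 241.87 at 45705653, in coding exon 1 and 369 bp downstream of a TSS. A second summit, 520 bp upstream at 45704568, reached 90.81 and was the highest of the 4 minor summits. The summits were 1085 bp apart. Dbp is the shortest of the 10 genes at 5116 bp, and a ROR element core lay 385 bp before and 573 bp after the TSS nearest to its main summit.

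The highest promoter summits lay from 426 bp upstream to 771 bp downstream of the nearest own TSS. In 9 of 10 genes the highest promoter summit lay downstream of the TSS, and in 79.3% of marked coding genes it did so as well (78.6 to 79.9). The exception was Clock, whose summit lay nearer to the TSS of Gm7467. The signed distance had a median of 326 bp in the clock genes and 171 bp in marked coding genes, whose quartiles were 49 and 327 bp. Of the 10 genes, 8 lay beyond that median and 5 beyond the upper quartile: Arntl, Per2, Nr1d1, Dbp and Per3. Summits on both sides of a TSS were found in Nr1d1 and Dbp, and in 8.28% of marked coding genes (7.83 to 8.74).

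**Figure D2:**
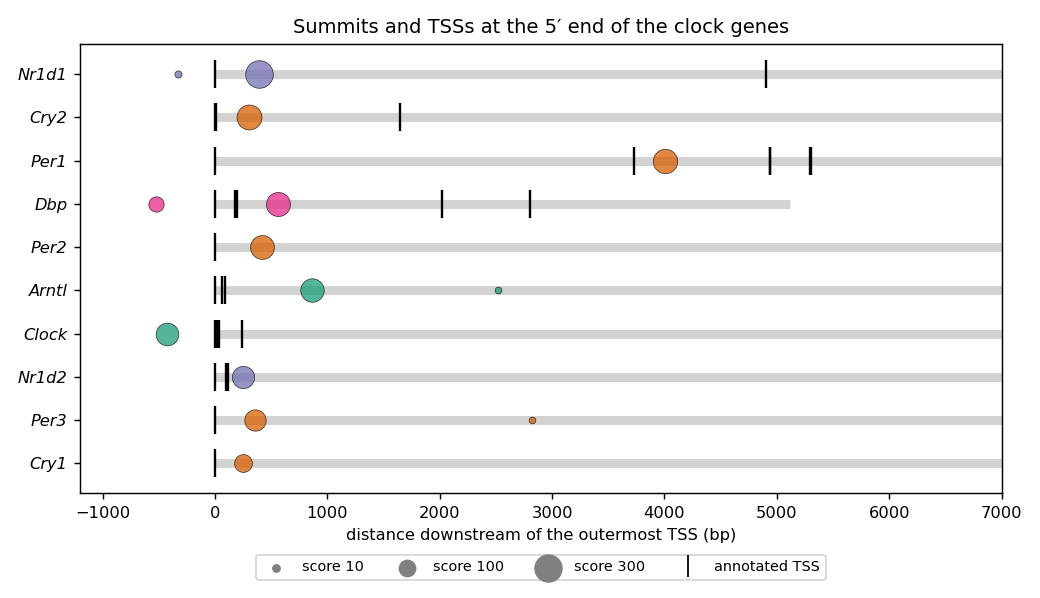
Summits (circles, area by score) and annotated TSSs (vertical lines) are drawn along each clock gene (grey bar, shown to 7000 bp), with distance in bp downstream of the outermost TSS and colours by role as in the plot of scores. Clock is the only gene whose highest summit lies upstream, nearer to the TSS of Gm7467, and the Per1 summit lies beyond an internal TSS.

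The 10 genes have 40 annotated TSSs, of which 22 (55%) lay within 1 kb of a summit and 18 did not. Over all marked coding genes 63.6% of 76105 TSSs did. Clock had 4 marked TSSs of 5, which lie within 244 bp of each other and share 1 summit, and its unmarked TSS lay 30780 bp inside the gene. Nr1d1, Per2, Per3 and Cry1 had 1 marked TSS each, out of 2, 2, 3 and 4.

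Summits beyond the main one all had lower scores. There were 2 or more summits in 4 of the 10 genes and in 20.5% of protein-coding genes (20.0 to 21.1). A gene body summit over 1 kb from every own TSS was found in Arntl and Per3, and in 14.7% of protein-coding genes (14.2 to 15.1). Both shares were taken over all 21938 protein-coding genes, including those without a promoter summit, whereas all 10 clock genes had one. All 4 minor summits lay below the median score of the list, by 11.54 in Dbp and by 91.27 to 94.27 in Nr1d1, Arntl and Per3. The differences between the main and the minor summit were 151.07 in Dbp, 180.06 in Per3, 221.31 in Arntl and 311.47 in Nr1d1. Of the promoter summits counted, that of Arntl at 771 bp was the farthest from its TSS. The nearest summits left out by the rule lay beyond the 3′ ends of Per1, by 1158 bp with a score of 26.11, and of Per2, by 1661 bp with a score of 4.85.

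The scores were set beside the sequence of the promoters, a property that the choice of members did not use. CpG content was taken as observed over expected CpG dinucleotides within 500 bp of the TSS nearest to the highest summit. Its median was 0.839 in 9 clock genes and 0.722 in 14196 of the marked coding genes. The GC content had medians of 67.0% and 59.8%. Per2 was the only clock gene left out, because it had no RefSeq promoter window. That condition was not applied to the other marked coding genes, and the values of Per2 were not tested. Of the 9 genes, 6 lay above the CpG median. The exceptions were Nr1d1 at 0.438, Per1 at 0.472 and Dbp at 0.597, which were 3 of the 4 highest-scoring genes among the 9.

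At the other end, Cry1 had the highest CpG ratio, 1.01, and the lowest score. Over the 9 clock genes Spearman's rho between score and CpG ratio was −0.70, whereas over the 14196 marked coding genes it was 0.26. The correlation was not planned. Nr1d1 and Cry1 held the extremes of both measures, and how far the value rests on them was not tested. Both values of rho are descriptions across genes of 1 list, which share depth and input, and genes are not replicates. The remaining members lay close together, with Per3 at 0.801, Cry2 at 0.839, Nr1d2 at 0.842, Arntl at 0.861 and Clock at 0.908.

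**Figure D3:**
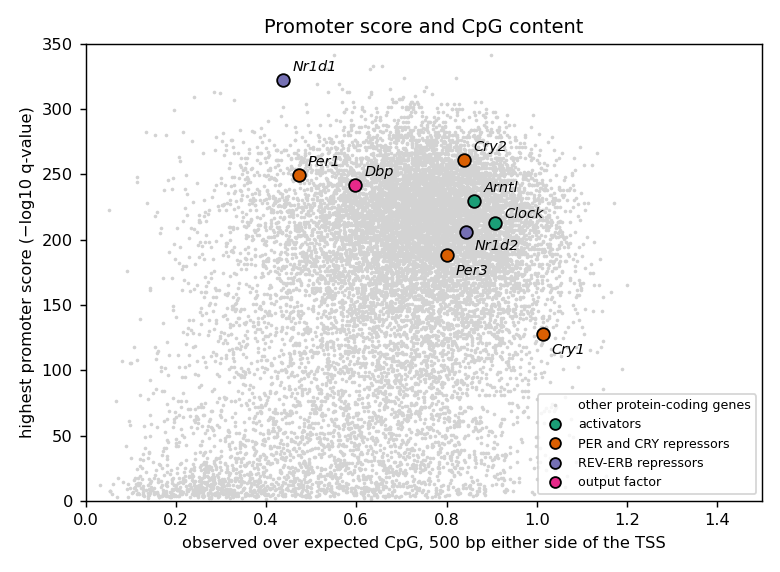
The highest promoter score (−log10 q-value) is plotted against the observed over expected CpG ratio within 500 bp of the TSS for 9 clock genes (large points, coloured by role) and for other protein-coding genes (grey). Nr1d1, Per1 and Dbp combine low CpG ratios with high scores, and Cry1 combines the highest ratio with the lowest score.

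Motifs were also counted in the wider window of 1 kb either side of the same TSS, again without Per2. E-boxes were present in 4 of the 9 genes, Per1, Cry1, Nr1d1 and Nr1d2, and in 32.6% of the marked coding genes. E′-boxes were present in 5, Clock, Per1, Cry1, Cry2 and Nr1d1, against 33.9%. D-boxes were present in Per3, with 3 matches, and in Nr1d2, with 2, against 5.73% of genes. ROR element cores were present in Arntl and in Dbp against 13.1%. No cAMP response element was matched in any of the 9 windows, and 5.41% of genes held one. No motif was common to all 9 genes.

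The mark at the core genes was compared with that at 22 accessory clock genes, which modulate the loop or its proteins. All 22 had a promoter summit, with a median highest promoter score of 213.38 and a range of 155.69 to 280.39. Of these 22 genes, 12 had 2 or more summits. The 10 paralogs and feedback regulators had a median of 219.04. Ciart, a repressor of CLOCK and BMAL1, was highest among them at 236.14, followed by Tef, a relative of Dbp, at 232.33. Bhlhe40 and Bhlhe41, which compete for E-boxes, stood at 223.23 and 220.93. Npas2, the paralog of Clock, and Hlf, a further relative of Dbp, both had 217.15.

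Rora and Rorb encode receptors that oppose the REV-ERBs at ROR elements. Rora stood at 222.83 and Rorb at 155.69, the lowest value of the 22 accessory genes but above that of Cry1. Rora also had 5 summits, 3 of them in its gene body. Arntl2, the paralog of Arntl, had 183.42, which is 45.96 below Arntl. Nfil3, which represses through D-boxes, had 173.92, or 67.95 below Dbp.

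The other 12 accessory genes encode kinases, ubiquitin ligase subunits and cofactors, and had a median of 205.86 with a range of 156.17 to 280.39. The 20 immediate early genes, which include no clock gene, had 2 or more summits in 8 and a promoter summit in 19, with a median of 169.64. Jund, the gene outside that median, had a gene body summit with a score of 213.38. Thus the core genes had the highest median of these lists, and their ranges overlapped. No test of these differences was made.

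**Figure D4:**
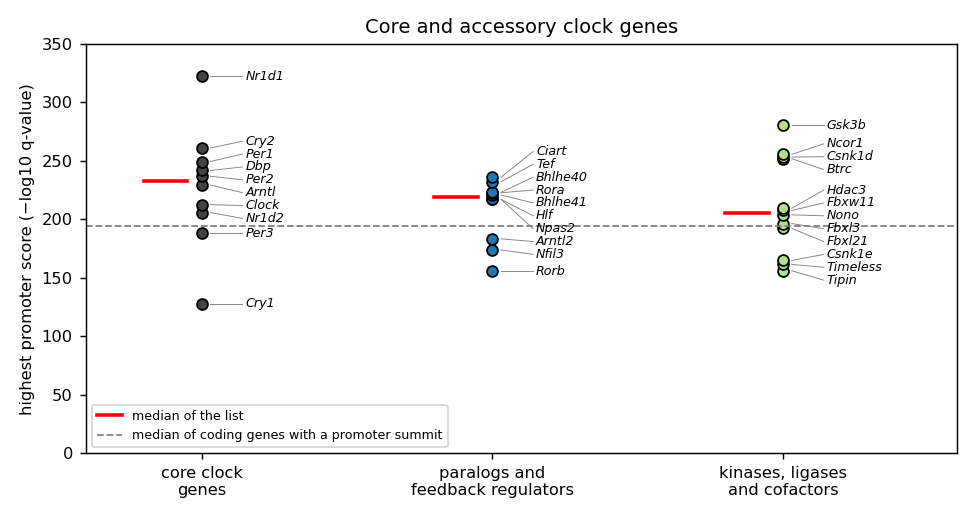
The highest promoter score (−log10 q-value) of each gene is plotted for the 10 core clock genes, 10 paralogs and feedback regulators, and 12 kinases, ligases and cofactors, with red bars for medians of 233.15, 219.04 and 205.86. The dashed line is the median of marked coding genes, 194.64, and Cry1 lies below all other genes drawn at 127.88.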

How the data were processed

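H3K4me3 native ChIP-seq was done on amygdala nuclei. Per the submitters' processing notes, the tools were Bowtie, SAMtools and MACS2 2.1.0.20140616 on mm10. The Methods state that up to 2 mismatches were allowed, uniquely mapped reads were kept, and peaks were called against the input at q-values under 0.1 and fold enrichment above 1. The authors deposited the WT peaks as 1 pooled list of 24162 summits, each with a score from the peak caller. These deposited scores were taken as −log10 q-values, which MACS2 computed for the authors, although the file names no scale. Read depth and the spread between mice were not part of the list.

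The 23 summits outside chromosomes 1 to 19, X and Y were left out. TSSs were those of GENCODE M21 on GRCm38, the assembly of mm10. CpG ratios, GC content and motifs were read from GRCm38.p6 and from the RefSeq promoter table of that build. The members and gene lists were chosen with earlier results of these data known. Some genes of the accessory and marker lists are not reported here. Text names all members, the paralogs and feedback regulators, and genes with a TSS within 1 kb of a member's summit. Assignment was tested on simulated data. Alternatives varied the TSS window, the TSSs, the score threshold, joining and the nearest-TSS rule. Python 3.11.15 with numpy 2.4.6, scipy 1.17.1 and pysam 0.24.0 was used, and matplotlib 3.10.9 drew the figures.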

Additional observations from a re-analysis of the deposited data

How the results depend on the processing

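Over 10 alternative settings, 28 values were recomputed, of which 23 kept a count within 1.5 times the reported one, gave the reported median score, or kept the sign of the rank correlation. All 10 clock genes kept a promoter summit with TSSs of protein-coding transcripts. They also kept one with a 3 kb window, which can only add promoter summits. With a score threshold at the median of the list all 10 kept one too, because their highest promoter summits exceed it. The 3 kb and threshold outcomes were thus fixed in advance, although they are counted among the 23. The number of clock genes with a promoter summit was 9 with a 500 bp window (Arntl lost) and with the outermost TSS alone (Per1 lost). It was also 9 when a summit counted only for the gene with the nearest TSS (Clock lost). The median highest promoter score, 233.15 as reported, was 236.93 with the 500 bp window, 229.38 with the outermost TSS alone and 236.93 with the nearest-TSS rule. These shifts follow from the gene lost. Clock genes with several summits fell from 4 to 0 when only summits at or above the median score were kept, and those with a gene body summit from 2 to 0 with the 3 kb window, which takes both summits into the promoter. The 14 summits became 13 with the 500 bp window, 10 at or above the median score and 13 after joining. The rank correlation of score with CpG ratio was −0.72 with 250 bp and −0.73 with 1 kb either side, settings chosen after seeing the data. The reported correlation was itself not planned. No paired analysis was possible because the list does not separate the WT mice, and for the same reason neither mouse could be left out. The scores cannot show differences between mice, times of day or genotypes.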
